A study of Mus musculus with 4 samples.

Results

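Among thymic invariant natural killer T (iNKT) cells, 67 of 19647 cells carried transcripts of effector genes that few of their neighbours had. Members were cells with at least 500 and fewer than 4100 genes, at least 1000 unique molecular identifiers (UMIs, single captured RNA molecules) and under 6% mitochondrial UMIs that had a UMI of at least 2 of the 4 genes Klrg1, S1pr5, Zeb2 and Cx3cr1, a UMI of Nkg7 and no UMI of Cd24a. They were compared with 12987 other Nkg7-positive Cd24a-negative cells, which met the same requirements on Nkg7 and Cd24a and had at most 1 of the 4 genes. The cells came from 4 droplet single-cell libraries, 1 per mouse, of untreated animals 8 to 9 weeks old on the C57BL/6 strain. The group named C57BL/6 held 2 wildtype mice, and the group named Hivep3-/- held 2 mice without functional Hivep3, a zinc finger transcription factor. In the C57BL/6 libraries, thymocytes binding a CD1d tetramer had been sorted so that CD44-low and CD44-high cells entered in equal parts, and the sort of the Hivep3-/- cells is described only as similar, so shares among sorted cells are not shares of the thymus. The knockout was constitutive, and the cells other than iNKT cells lacked Hivep3 as well.

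iNKT cells are T cells with a nearly fixed receptor alpha chain that see lipids on CD1d, and most of those that mature in the mouse thymus become T-bet-expressing iNKT1 cells, which resemble natural killer (NK) cells and often stay in the tissue. KLRG1 is an inhibitory receptor of cytotoxic lymphocytes that have divided repeatedly, S1PR5 is a sphingosine phosphate receptor that guides NK cells out of tissues, ZEB2 is a zinc finger repressor that acts with T-bet in terminal effector cells, and CX3CR1 is the receptor for fractalkine, found on circulating effector cells. In conventional CD8 T cells and NK cells these genes mark late effector states, whereas NKG7 is a granule membrane protein shared by iNKT1 cells in general and CD24 marks the earliest iNKT precursors.

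Nearly all members came from 1 mouse. C57BL/6 replicate 1 gave 3 members, C57BL/6 replicate 2 gave 3, Hivep3-/- replicate 1 gave 55 and Hivep3-/- replicate 2 gave 6, so that 82.1% of the 67 cells were from Hivep3-/- replicate 1. As shares of the Nkg7-positive Cd24a-negative cells these were 0.0718% of 4180 cells (95% exact binomial interval 0.0148 to 0.21%), 0.113% of 2653 (0.0233 to 0.33%), 1.60% of 3440 (1.21 to 2.08%) and 0.216% of 2781 (0.0792 to 0.469%). The interval of Hivep3-/- replicate 1 lay above the other 3, and the interval of Hivep3-/- replicate 2 overlapped both C57BL/6 intervals. The mean share was 0.0924 ± 0.0292% in C57BL/6 and 0.907 ± 0.978% in Hivep3-/- (SD, n = 2 mice each). The difference of 0.815 percentage points had an exact two-sided permutation p of 0.333, the smallest p that 2 mice against 2 allow. Without Hivep3-/- replicate 1 the difference was 0.123 percentage points. The gate was chosen with these numbers known, so the p is a description. Intervals and floors here cover counting error only. The labels do not say whether the mice shared a litter or a day, and the paper describes 2 independent experiments for each genotype. The p-values of shares and between genotypes therefore measure the spread between these 4 samples. Those between classes, with the library as a block, set the class difference against a variation estimated largely from all genes together. Very small values there do not show how evenly 1 gene differed across the 4 mice.

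**Figure D1:**
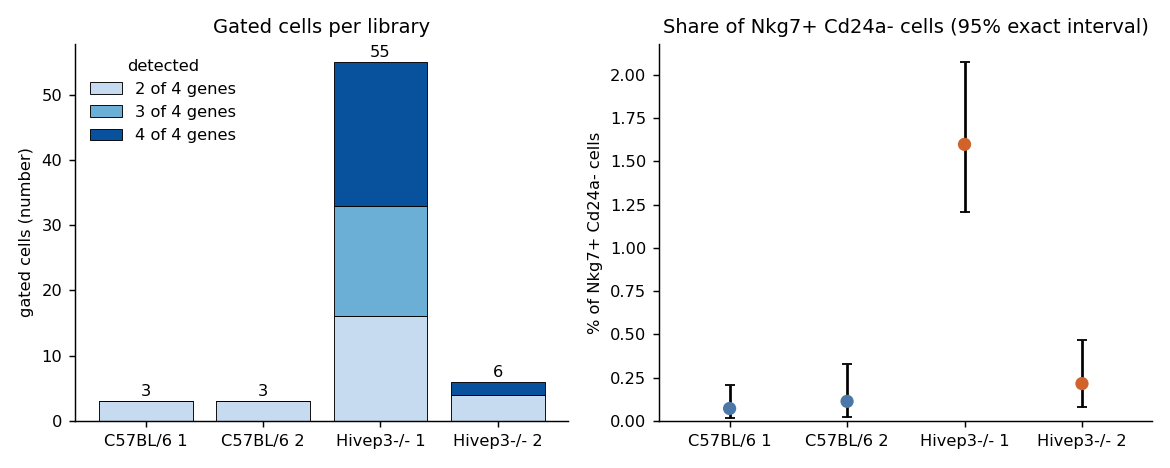
Left, number of gated cells in each library, with the number of the 4 gate genes detected in the cell shown by shade; right, the same cells as a percentage of Nkg7-positive Cd24a-negative cells, with 95% exact binomial intervals. Hivep3-/- replicate 1 holds 55 of the 67 cells and stands alone at 1.60%.

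Cells at the strict end of the gate were counted in the knockout libraries. Of the 41 cells with 3 or 4 of the genes, 39 were from Hivep3-/- replicate 1, 2 were from Hivep3-/- replicate 2 and none was from C57BL/6 (0 of 6833 Nkg7-positive Cd24a-negative cells, which allows a share of up to 0.0439%). In Hivep3-/- replicate 1, 16 members had 2 of the genes, 17 had 3 and 22 had all 4. Klrg1 was detected in 48 of its 55 members, S1pr5 in 46, Zeb2 in 39 and Cx3cr1 in 38. All 3 members of C57BL/6 replicate 1 qualified through S1pr5 and Cx3cr1 with 1 UMI of each, and the 3 of C57BL/6 replicate 2 through pairs among Klrg1, S1pr5 and Cx3cr1. Zeb2 had no UMI in any C57BL/6 member. The 6 members of Hivep3-/- replicate 2 had Cx3cr1 in 6 cells, S1pr5 in 5, Zeb2 in 3 and Klrg1 in 2.

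Detection of Cx3cr1 alone did not follow the same order. Just outside the gate, exactly 1 of the 4 genes was found in 100, 88, 554 and 544 cells of C57BL/6 replicates 1 and 2 and Hivep3-/- replicates 1 and 2, and in the knockout libraries 492 and 523 of these carried Cx3cr1 alone. Over all Nkg7-positive Cd24a-negative cells, Cx3cr1 was detected in 1.60% and 2.0% of C57BL/6 cells and in 15.4% and 19.0% of Hivep3-/- cells. Klrg1 was detected in 0.263%, 0.792%, 2.33% and 0.216%, and S1pr5 in 0.455%, 0.339%, 1.83% and 0.396%. Cx3cr1 was thus high in both knockout mice, whereas Klrg1 and S1pr5 were high in Hivep3-/- replicate 1 only. Among Nkg7-negative Cd24a-negative cells, 1 of 6097 had 2 or more of the genes, and among Cd24a-positive cells 1 of 496.

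Members were not the deepest cells. Their median UMI count in Hivep3-/- replicate 1 was 5874 against 6629 in the other Nkg7-positive Cd24a-negative cells of that library, and 3124 against 3690, 4213 against 4761 and 6310 against 6017 in C57BL/6 replicates 1 and 2 and Hivep3-/- replicate 2. After each cell was thinned to 2000 UMIs, with 502, 91, 82 and 75 shallower cells left out, the mean number of members over 100 draws was 0.88, 1.26, 33.13 and 1.98. Summed over members, the 4 libraries held 18426, 12822, 408995 and 44445 UMIs, so that 1 UMI corresponded to 54.3, 78, 2.45 and 22.5 counts per 1000000 UMIs (CPM). Levels in the 3 smaller sums are therefore coarse, and 3 counts, the floor used for a value of 0, correspond to 163, 234 and 67.5 CPM there and to 7.34 CPM in Hivep3-/- replicate 1.

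Libraries summed to 31381738 to 48291764 UMIs over kept cells. Of the barcodes, 252 occurred in more than 1 library, none of them a member. No doublet caller was run. Y-linked transcripts were present and Xist was at 0 to 23 UMIs in the comparison cells of 3 libraries, whereas C57BL/6 replicate 1 had 5449 Xist UMIs and no Y-linked UMI, while the study's text describes the C57BL/6 mice of this experiment as female and its methods state that mice of both sexes were used. The targeted gene gives no check of the genotype, because Hivep3 RNA was counted at 28.9, 23.8, 42.1 and 37.4 CPM in the comparison cells, with the deleted part not resolved by gene counts. In the members it was at 0, 0, 19.6 and 90.0 CPM.

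The members were T cells by their receptor genes. The CD3 epsilon gene Cd3e, part of the T cell receptor complex, was detected in all 67 members, at 977, 1794, 1555 and 1710 CPM, against 1238, 1411, 1685 and 1491 CPM in the comparison cells. Trdc, the gamma-delta receptor constant gene, and Cd8b1 were at 0 in every member. Cd8a, which encodes the other CD8 chain, was at 0, 0, 14.7 and 135 CPM in members against 2.6, 1.2, 21 and 14.5 CPM in comparison cells, and the 6 UMIs behind the 135 CPM came from 1 cell of Hivep3-/- replicate 2. Also at 0 were Rag1 and Rag2 of double positive thymocytes, Ms4a1 and Cd79a of B cells, and Lyz2, Csf1r and C1qa of myeloid cells. The 12 myeloid and dendritic markers summed to 54 to 100 CPM in members and 132 to 163 CPM in comparison cells, all of it in members from Cst3, and 11 of the 12 were at 0 in members. The 5 B cell markers summed to 0 to 7.3 CPM and the 6 double positive markers to 0 to 22.5 CPM in members.

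Their iNKT identity was less clear from RNA. Zbtb16, which encodes PLZF, the transcription factor that directs innate-like T cells, was detected in 5 of the 67 members. It stood at 54.3, 0, 14.7 and 0 CPM against 145, 81.1, 55.2 and 63.0 CPM in comparison cells, a fitted log2 difference of -2.40 ± 0.65 (SE; adjusted p = 0.00949). The invariant alpha chain is made from Trav11 and Traj18. In Hivep3-/- replicate 1 a UMI of either segment was found in 9 of 55 members (16.4%) and in 26.6% of comparison cells, and among cells with 3 or 4 gate genes in 3 of 39 (7.69%). Alpha V segments of any kind were sparse in those 39 cells, with 8 of them holding any, against 57.3% of comparison cells. Where an alpha V UMI was captured in members of that library, 17.1% were Trav11 (6 of 35), against 17.4% in comparison cells. The name iNKT therefore rests on the tetramer sort.

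The comparison of members with other Nkg7-positive cells asked what else set these cells apart within each mouse. It was fitted with edgeR on UMI sums per library and class, with the library as a block and without the 6 genes of the gate. At an adjusted p under 0.05 it called 401 of 10030 genes (4.0%), 175 higher (1.74%) and 226 lower (2.25%) in members. The fitted differences were centred at a median log2 of -0.26 over all genes tested (0.00 with DESeq2), and values are to be read against that shift. The calls rested largely on Hivep3-/- replicate 1: without it 100 of 9972 genes (1.0%) were called, 5 of them higher (0.0501%) and 95 lower (0.953%). DESeq2 on the same sums called 13 genes (0.13%), 10 higher (0.0997%) and 3 lower (0.0299%), each of which edgeR also called. Of the 175 genes called higher, 140 had no UMI in either C57BL/6 sum, and of the 226 called lower, 72 had no UMI outside Hivep3-/- replicate 1.

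Granzyme A and the chemokine CCL5 had higher summed levels in members, but they were not particular to members. Comparison cells with a UMI of both genes numbered 338, 229, 243 and 254 in the 4 libraries. Gzma, a serine protease of cytotoxic granules, was at 2659, 4212, 9218 and 7245 CPM in the members of C57BL/6 replicates 1 and 2 and Hivep3-/- replicates 1 and 2. In the comparison cells it was at 295, 356, 160 and 233 CPM, so that the lowest member sum lay above every comparison sum. The log2 difference was 3.89 ± 0.22 (SE; adjusted p = 1.08e-67), and it held without Hivep3-/- replicate 1 (3.28, adjusted p = 5.17e-35). In Hivep3-/- replicate 1 Gzma was detected in 44 of 55 members and in 9.63% of comparison cells. Ccl5, a chemokine stored and secreted by effector T cells, was at 5590, 9125, 26526 and 20767 CPM against 503, 645, 2181 and 2325 CPM. Its log2 difference was 2.98 ± 0.15 (adjusted p = 1.5e-88), and it was detected in 66 of the 67 members. In Hivep3-/- replicate 1 it was also detected in 50.8% of comparison cells.

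Among the 8 chemokines and cytokines listed, Ccl3, Ccl4 and Ccl5 rose and Xcl1, Tnf and Il4 fell. Ccl4, an inflammatory chemokine that attracts leukocytes, was at 760, 546, 142 and 1012 CPM against 40.4, 21.1, 40.1 and 41.3 CPM (log2 difference 3.21 ± 0.40, adjusted p = 1.78e-12). Its member counts were small, with 14, 7, 58 and 45 UMIs, of which those in the C57BL/6 libraries came from 1 cell each. Xcl1, the lymphotactin gene typical of iNKT1 cells, was at 217, 468, 122 and 675 CPM against 398, 416, 638 and 760 CPM and so was not below the comparison cells in C57BL/6 replicate 2 (log2 difference -1.44 ± 0.35, adjusted p = 0.00194). Il4 had no UMI in any member and stood at 91.8, 85.4, 29.0 and 23.0 CPM in comparison cells. Against the floor of 3 counts it was at least 3.95-fold lower in the members of Hivep3-/- replicate 1. Ifng, the main cytokine of iNKT1 cells, was at 271, 78, 110 and 247 CPM against 160, 105, 68.9 and 154 CPM and was not called (log2 difference 0.19 ± 0.42, adjusted p = 0.932).

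In the cytotoxic list Gzma was the only gene called, of 13 listed and 11 that could be tested, and the median log2 difference was -0.36. In Hivep3-/- replicate 1, 11 of the 13 were at higher CPM in members than in comparison cells. Gzmb, granzyme B, was at 488, 312, 863 and 247 CPM in members and 334, 664, 689 and 662 CPM in comparison cells, with overlapping values (log2 difference -0.76 ± 0.32, adjusted p = 0.225). Prf1, perforin, was at 54.3, 0, 100 and 90.0 CPM against 21.8, 29.9, 49.4 and 24.0 CPM (0.88 ± 0.44, adjusted p = 0.374). Gzmc, a granzyme found outside this list among the largest falls, was at 0, 0, 4.89 and 0 CPM in members against 10.7, 14.2, 61.7 and 98.2 CPM. In the C57BL/6 member sums 1 UMI was 54.3 and 78 CPM, so the zeros there do not show a fall.

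**Figure D2:**
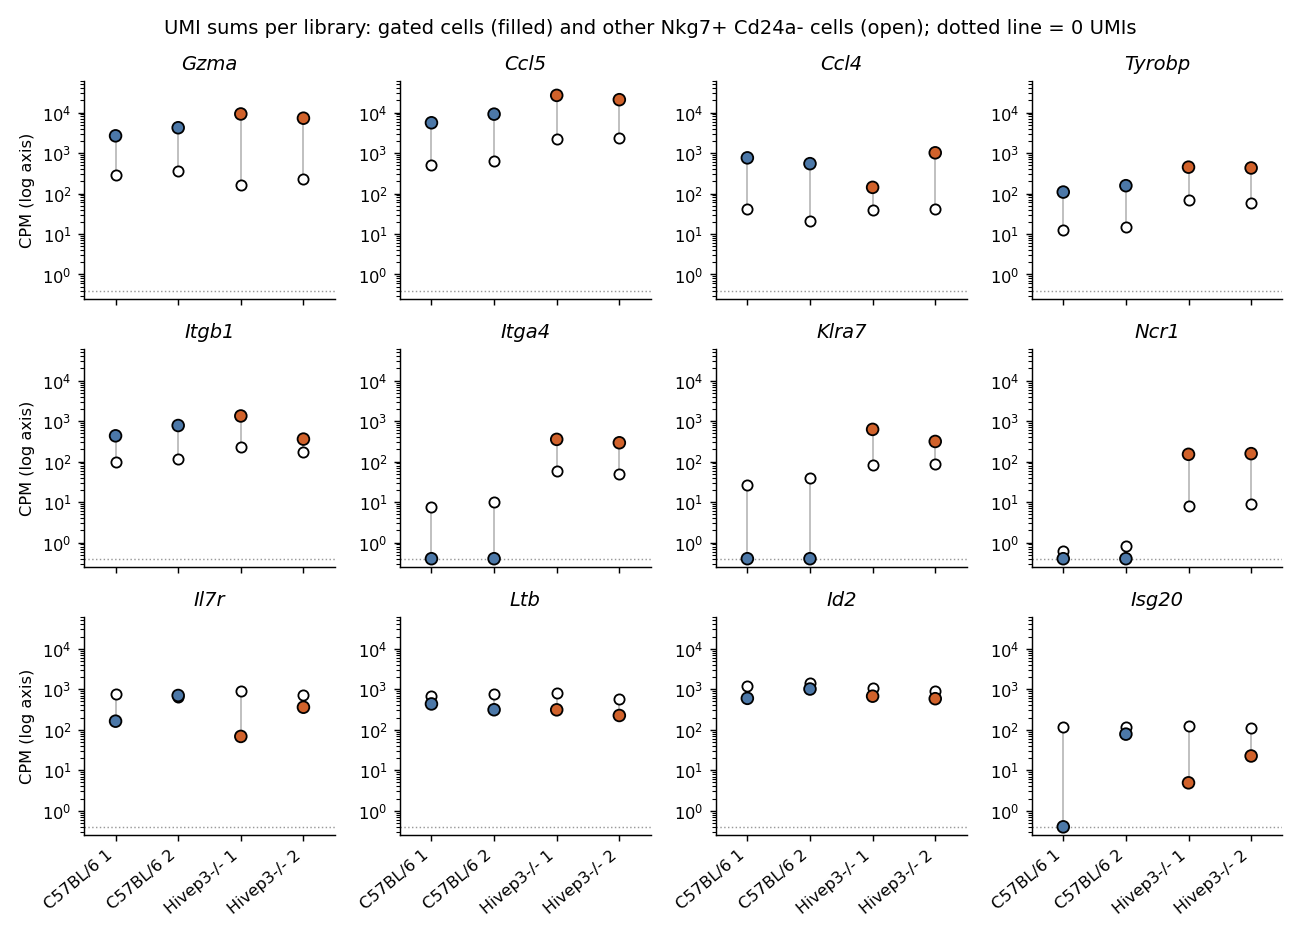
CPM on a log axis for 12 genes in each library, in gated cells (filled; blue C57BL/6, orange Hivep3-/-) and in the other Nkg7-positive Cd24a-negative cells (open), with 0 UMIs drawn on the dotted line and no error bars because each point is 1 sum. Gzma, Ccl5, Ccl4 and Tyrobp lie above the comparison cells in all 4 libraries. Itga4, Klra7 and Ncr1 do so in the Hivep3-/- libraries and are at 0 in the C57BL/6 gated cells. There 1 UMI is 54.3 and 78 CPM, so these zeros cannot show whether the rise is confined to Hivep3-/-.

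NK-type receptors and their adaptors gave 4 genes called higher and 1 lower of 21 tested, with a median log2 difference of -0.03. Tyrobp, which encodes the adaptor DAP12 that signals for activating NK receptors, was at 109, 156, 447 and 427 CPM against 12.4, 15.1, 67.8 and 59.2 CPM (log2 difference 2.50 ± 0.45, adjusted p = 5.55e-06). It was higher in 4 of 4 libraries and was called without Hivep3-/- replicate 1 (adjusted p = 0.0011). That call rested on few cells, with Tyrobp detected in 1 of 3, 2 of 3 and 3 of 6 members of C57BL/6 replicates 1 and 2 and Hivep3-/- replicate 2. Both C57BL/6 values lay under the level of 3 counts, 163 and 234 CPM. Ncr1, the NK receptor NKp46, had 62 UMIs in 15 of 55 members of Hivep3-/- replicate 1 and 7 UMIs in 1 of 6 members of Hivep3-/- replicate 2. These sums gave 152 and 157 CPM against 7.97 and 9.07 CPM, and Ncr1 was at 0 in the C57BL/6 members and below 1 CPM in the C57BL/6 comparison cells. Klra7, an Ly49 receptor, was at 0, 0, 626 and 315 CPM against 25.7, 39.4, 82.1 and 87.0 CPM (1.68 ± 0.47, adjusted p = 0.0136). The Klra genes are near-identical copies of each other, so reads could have been split among them. Cd244, the receptor 2B4, was called higher (adjusted p = 0.0412) and Klra6 lower, the latter on 1 UMI in all members.

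Adhesion genes included both chains of the integrin VLA-4, which binds VCAM-1 on endothelium. Of 8 integrin genes tested, Itga2, Itga4 and Itgb1 rose and Itgae fell. Itgb1, the beta chain of VLA-4, was at 434, 780, 1342 and 360 CPM against 97.5, 115, 230 and 171 CPM (log2 difference 1.66 ± 0.36, adjusted p = 0.000222), higher in 4 of 4 libraries. Itga4, its alpha chain, was at 0, 0, 355 and 292 CPM against 7.54, 10.2, 60.1 and 50.8 CPM (2.08 ± 0.48, adjusted p = 0.000874), with no UMI in the 6 C57BL/6 members. Itgae, the CD103 chain that binds epithelial E-cadherin, was at 163, 546, 31.8 and 157 CPM against 157, 151, 356 and 237 CPM. Its fall (-1.47 ± 0.47, adjusted p = 0.0471) was not called without Hivep3-/- replicate 1. In Hivep3-/- replicate 2 the lower member value came from 3 of 6 members. In the C57BL/6 libraries member values were at or above the comparison cells. Lgals1, galectin-1, was 2308 CPM in the members of Hivep3-/- replicate 1 against 820 CPM and was higher in all 4 libraries (0.85 ± 0.23, adjusted p = 0.00892).

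The egress and homing list gave no gene called higher and 1 called lower, Cxcr6, of 14 tested. Klf2, the transcription factor that turns on egress receptors, was at 488, 624, 1337 and 765 CPM against 534, 123, 359 and 263 CPM, higher in 3 of 4 libraries and just short of the threshold (log2 difference 0.98 ± 0.32, adjusted p = 0.0569). S1pr1, the main receptor for leaving the thymus, was at 0, 78, 70.9 and 45.0 CPM against 13.4, 12.6, 23.2 and 26.5 CPM and was not called (1.21 ± 0.46, adjusted p = 0.14). Cxcr6, which retains iNKT1 cells in liver and other tissues, was at 142 and 180 CPM against 556 and 365 CPM in the Hivep3-/- libraries but at 543 and 468 CPM against 409 and 392 CPM in C57BL/6. The call for Cxcr6 (adjusted p = 0.0185) was lost without Hivep3-/- replicate 1. The value of Hivep3-/- replicate 2 came from 3 of 6 members.

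Il7r, the interleukin-7 receptor chain that sustains resting and memory T cells, was at 163, 702, 68.5 and 360 CPM against 765, 644, 900 and 724 CPM. It was lower in 3 of 4 libraries, C57BL/6 replicate 2 being the exception, with a log2 difference of -2.33 ± 0.35 (adjusted p = 1.08e-08). It was the only one of 12 cytokine receptor genes called. Ltb, lymphotoxin beta, was at 434, 312, 311 and 225 CPM against 701, 770, 808 and 581 CPM, lower in 4 of 4 libraries (-1.67 ± 0.32, adjusted p = 2.77e-05). In the list of resting and tissue-resident iNKT1 genes, 4 of 9 tested fell, namely Izumo1r, Rgs1, Ltb and Junb, and none rose.

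Of 13 effector and memory transcription factors tested, Id2 was the only one called. This inhibitor of E proteins was at 597, 1014, 675 and 585 CPM in members against 1195, 1421, 1046 and 902 CPM (log2 difference -1.17 ± 0.26, adjusted p = 0.000526). Tbx21, which encodes T-bet, was at 0, 156, 462 and 112 CPM against 86.8, 103.2, 116 and 77.1 CPM. In Hivep3-/- replicate 1 it was detected in 44 of 55 members and in 49.6% of comparison cells, with a ratio of levels of 4.0 (exact interval 3.43 to 4.63), but over the 4 libraries it was not called (0.67 ± 0.46, adjusted p = 0.606). Eomes, the related T-box factor of NK and memory cells, had 4 UMIs in 1 member of Hivep3-/- replicate 2 and none elsewhere among members.

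Interferon response genes had lower summed levels in members. Of 7 tested, 5 fell (Ifit1, Ifit3, Isg15, Isg20 and Rtp4), none rose, and the median log2 difference was -3.05. Over all genes tested, 2.25% were called lower. DESeq2 called 1 of them, Isg20, and without Hivep3-/- replicate 1 edgeR called 1, Isg15. Isg20, an interferon-induced exonuclease, was at 0, 78, 4.89 and 22.5 CPM against 120, 115, 123 and 108 CPM (-3.90 ± 0.74, adjusted p = 1.37e-05). It was lower in 4 of 4 libraries, but the C57BL/6 member sums, where 1 UMI was 54.3 and 78 CPM, are coarse for such levels. Isg15, a ubiquitin-like protein, was at 0, 0, 83.1 and 0 CPM against 155, 166, 164 and 133 CPM. Both C57BL/6 comparison values lay under the level of 3 counts in members, 163 and 234 CPM, so those zeros do not show a fall. Of the 8 immediate-early genes, Jun, Junb and Dusp1 fell and none rose. Their summed level was 5264, 3588, 1105 and 2857 CPM in members and 6866, 3598, 1980 and 4285 CPM in comparison cells. This sum ranged over the mice in both classes, was lowest in Hivep3-/- replicate 1, and was close in both classes of C57BL/6 replicate 2.

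Markers of the other iNKT subsets were few. The 7 iNKT17 markers summed to 0 to 14.7 CPM in members and 6 of them were at 0. Of the 3 that could be tested, Tmem176a and Tmem176b, with no member UMI, fell, and the protease inhibitor gene Serpinb1a rose on 6 UMIs in 4 members of Hivep3-/- replicate 1 (adjusted p = 0.0322). Of the 7 iNKT2 markers tested, Icos, Izumo1r and Il4 fell and none rose. Of the 7 stage 0 markers none was called, and of the 6 iNKT1 markers outside the gate Xcl1 was called, lower. Among 11 T cell and iNKT receptor genes, Cd3g and Zbtb16 fell. Tcrg-C1 and Tcrg-C4 fell in the gamma-delta list, and no test was made of the B cell list, whose genes were too low. Among 25 genes tested that the study names between genotypes, a list chosen on these samples, Cd52, Dusp1, Zbtb16, Id2, Il4 and Icos fell and none rose.

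By the ranking fixed for naming genes, 77 called genes had a mean of at least 20 CPM and 1 direction in all 4 libraries. Of these, 9 were higher and 68 lower. In the C57BL/6 member sums 1 UMI was 54.3 and 78 CPM. A 0 there counts as lower even for a gene expected at less than 1 UMI, so 1 direction in 4 libraries says little for such falls. The 9 were Gzma, Ccl4, Ccl5, Tyrobp, 9330175E14Rik, Itgb1, Kcnj8, Nrm and Lgals1. Kcnj8, a potassium channel subunit, was at 54.3, 78, 120 and 202 CPM in members against 23.9, 18.3, 48.3 and 32 CPM, the C57BL/6 values being 1 UMI each. The 10 largest falls were Trbv13-3, Gpr183, Il4, Trbv29, Ifit1, Gzmc, Igfbp4, Ifit3b, Rflnb and Isg20. Gpr183, the oxysterol receptor EBI2 that positions lymphocytes, had no UMI in any member and was at 54.9 to 80.7 CPM in comparison cells, at least 9.77-fold lower in Hivep3-/- replicate 1. The 13 genes called by both tools were Gzma, Ccl5, Ccl4, Tyrobp, Itgb1, Lgals1, Ncr1, As3mt, Pltp and Hist1h2af among those higher and Trbv29, Ltb and Isg20 among those lower. Without Hivep3-/- replicate 1, Gzma, Ccl5, Ccl4, Tyrobp and Hist1h2af among the higher genes were still called, Hist1h2af then resting on 9 UMIs in 1 member. Among the lower genes Trbv29, Il7r, Ltb, Id2, Cd3g, Junb, Rgs1, Dusp1, Isg15 and Icos were still called. Outside that library Trbv29 was detected in 0 of 3, 0 of 3 and 1 of 6 members, against 21.5%, 19.6% and 24.3% of comparison cells. These are too few cells to show a fall of Trbv29 without that library. Itgb1 (adjusted p = 0.261), Itga4 (0.158), Lgals1 (0.441), Klra7 (0.877), Cxcr6 (0.877), Itgae (0.888), Xcl1 (0.73), Isg20 (0.28) and Zbtb16 (0.274) were then not called, and Ncr1 was too low to be tested. As3mt, an arsenic methyltransferase, had 47 UMIs in 21 of 55 members of Hivep3-/- replicate 1 (115 CPM against 1.38 CPM) and 1 UMI in each of 2 other libraries.

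Members were next set against the other Nkg7-positive Cd24a-negative cells that had a UMI of both Gzma and Ccl5, so that these 2 genes are no result there. There were 338, 229, 243 and 254 such cells in the 4 libraries. Of 6384 genes tested, 227 were called (3.56%), 42 higher (0.658%) and 185 lower (2.9%), and of the 175 genes higher in the main comparison 32 were again called higher. Tyrobp (log2 difference 1.61, adjusted p = 0.00144), Itga4 (1.81, adjusted p = 0.00109) and Klra7 (1.52, adjusted p = 0.00762) stayed higher, and Il7r (-2.35, adjusted p = 7.24e-10), Itgae (-1.86, adjusted p = 0.000645) and Cxcr6 (-1.66, adjusted p = 6.14e-05) stayed lower. Gzmb was lower than in these cells (-1.55, adjusted p = 3.34e-06), whereas Itgb1 fell short of the threshold (0.96, adjusted p = 0.0588) and Zbtb16 was not called (-1.0, adjusted p = 0.713).

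Within Hivep3-/- replicate 1, the only library with enough cells, levels could be followed by the number of gate genes detected. These values describe 1 mouse and have no replicate check. Gzma was detected in 9.50% of cells with none of the 4 genes, 10.3% with 1, 56.2% with 2, 88.2% with 3 and 90.9% with 4. Its level in those cells was 154, 184, 1105, 11397 and 13425 CPM. Ccl5 was detected in 48.9% and 60.5% of cells with none and 1, and in every cell with 2 or more.

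The falls were steepest between 1 and 3 genes. Il7r was detected in 93.1% of cells with none, 92.2% with 1, 37.5% with 2, and in 2 of the 39 cells (5.13%) with 3 or 4. Itgae was detected in 73.3%, 77.1%, 18.8% and 2.56%, Xcl1 in 82.6%, 83.0%, 68.8% and 7.69%, and Ltb in 94.8%, 92.6%, 87.5% and 23.1% of the same classes. Cells with 2 of the genes were thus intermediate for Il7r and Itgae, and close to non-members for Ltb. For Xcl1 they were nearer to non-members by detection, but its level was 343 CPM against 644 CPM with none and 614 CPM with 1. Median UMI counts of these classes lay between 5793 and 7462.

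**Figure D3:**
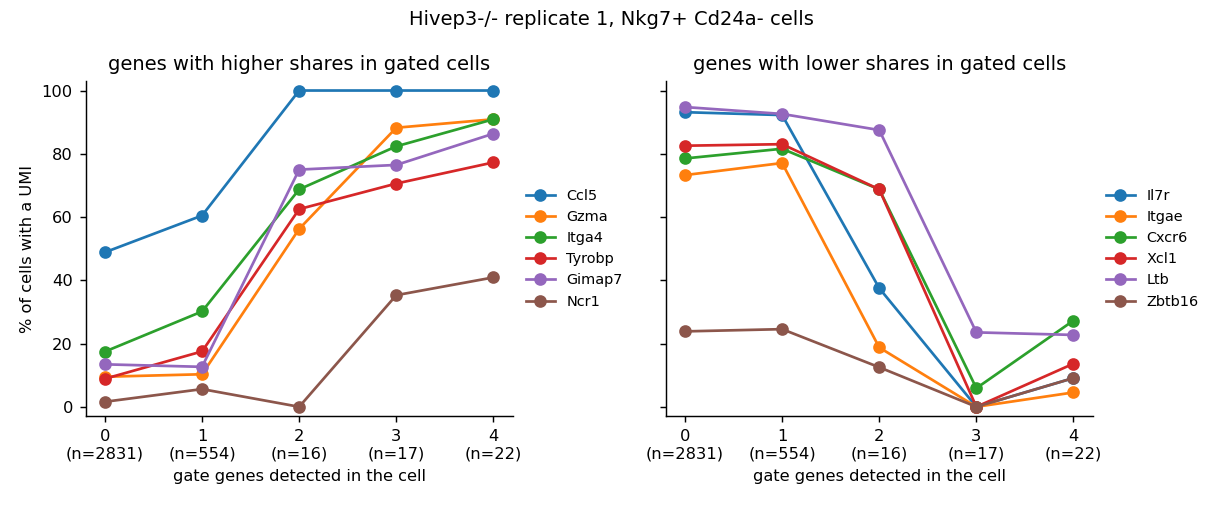
Percentage of Nkg7-positive Cd24a-negative cells of Hivep3-/- replicate 1 with a UMI of each of 12 genes, by the number of gate genes detected in the cell; n is the number of cells, and the points describe 1 mouse. Most shares in cells with 1 gate gene lie near those in cells with none, and they change at 2 or 3 genes, for example Gzma from 10.3% to 56.2% and Il7r from 92.2% to 37.5%.

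Cells with a single gate gene are described by which gene it was. The 492 cells of Hivep3-/- replicate 1 with Cx3cr1 alone had Ccl5 in 57.3%, Il7r in 94.9% and Itgae in 81.1%, near the values of cells with no gate gene. Other shares lay further apart, with Itgb1 in 80.5% against 60.5% of cells with no gate gene, Klf2 in 78.9% against 54.3%, Klra1 in 69.7% against 43.8% and Gzmb in 39.0% against 63.1%. The 32 cells with Klrg1 alone had Ccl5 in 96.9%, Itga4 in 59.4% and Il7r in 56.2%, nearer to the members with 2 genes, yet Gzma in 12.5% and Xcl1 in 93.8%, near the cells with none. Gimap7, a GTPase of lymphocyte survival chosen here after its values were seen, was detected in 44 of the 55 members of that library (80.0%), in 62.5% of cells with Klrg1 alone, in 8.33% of those with Cx3cr1 alone and in 13.3% of all comparison cells. Gimap7 was at 0, 0, 469 and 112 CPM in the members of the 4 libraries against 18.5, 34.2, 33.0 and 20.1 CPM, was called over the 4 libraries (log2 difference 2.43 ± 0.52, adjusted p = 0.000228), and was not called without Hivep3-/- replicate 1 (adjusted p = 0.877).

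Members of Hivep3-/- replicate 1 also lay together when the gate genes were left out, given here as a description. In principal components of 2000 variable genes, without the gate genes, receptor segments, mitochondrial and histone genes and 5 genes of mitosis, on average 58.2% of the 15 nearest neighbours of a member were members, where members made up 1.60% of the cells. The mean was 70.4% for cells with 3 or 4 gate genes and 28.3% for those with 2, against 0.878% for cells with 1 and 0.243% for cells with none. Only 1 non-member had a neighbourhood of which members were the majority. In C57BL/6 the members had no members among their neighbours, with 3 in each library, and in Hivep3-/- replicate 2 the mean was 2.22%.

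The beta chain of the receptor differed among classes as well. In mouse iNKT cells the invariant alpha chain pairs mostly with beta chains that use Trbv13, Trbv29 or Trbv1. Among the 39 cells of Hivep3-/- replicate 1 with 3 or 4 gate genes, Trbv13-2 was detected in 38 (97.4%, exact interval 86.5 to 99.9%), and neither Trbv29 nor Trbv1 was detected in any. In the comparison cells of that library Trbv13-2 was detected in 54.6% (52.9 to 56.3%), Trbv29 in 22.3% and Trbv1 in 12.8%. In the Gzma-positive Ccl5-positive comparison cells these shares were 56.0%, 18.5% and 15.2%. Among the 16 members with 2 gate genes Trbv13-2 was found in 11 (68.8%, 41.3 to 89.0%), Trbv13-1 in 6, Trbv1 in 2 and Trbv29 in 1.

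Other beta segments accompanied Trbv13-2 in the cells with 3 or 4 gate genes. Trbv31 was detected in 11 of 39 (28.2%, exact interval 15.0 to 44.9%) against 2.45% of comparison cells, and Trbv3 in 6 of 39 (15.4%, 5.86 to 30.5%) against 1.48%. These gave 26 UMIs of Trbv31 and 16 of Trbv3 beside 404 of Trbv13-2, and Trbv13-1 gave 65 UMIs in 4 of the cells. Trbv13-2 had the most UMIs in 34 of the 39 cells (87.2%), Trbv13-1 in 3 and Trbv3 in 1, with a tie in 1. Elsewhere the usage was mixed: Trbv13-2 was detected in 1, 1 and 3 of the 3, 3 and 6 members of C57BL/6 replicates 1 and 2 and Hivep3-/- replicate 2. Over the 4 libraries Trbv29 was called lower in members (log2 difference -4.40 ± 0.61, adjusted p = 3.16e-10), with 6 UMIs in all, and Trbv13-2 was not called (-0.57 ± 0.32, adjusted p = 0.473). UMIs of a segment come many to a cell, and these tests on sums treat the UMIs of 1 cell as separate counts. The Trbv13 segments are near-identical copies, so reads could have been assigned to the wrong one, and full receptor sequences were not analysed here.

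**Figure D4:**
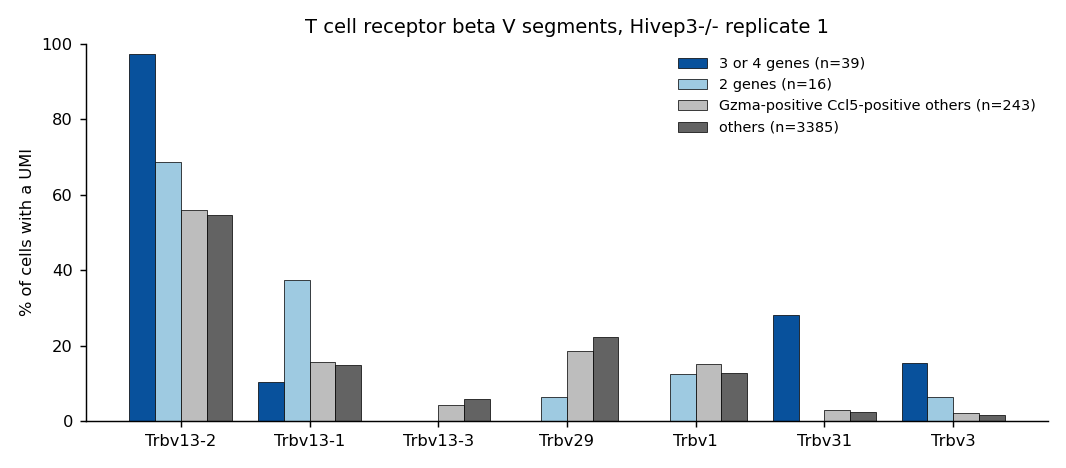
Percentage of cells of Hivep3-/- replicate 1 with a UMI of each T cell receptor beta V segment, in gated cells with 3 or 4 gate genes, gated cells with 2, comparison cells with Gzma and Ccl5, and all comparison cells; n is the number of cells and all are from 1 mouse. Trbv13-2 reaches 97.4% in the cells with 3 or 4 gate genes, in which Trbv13-3, Trbv29 and Trbv1 are absent.

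Cell division genes were more often detected in the members of Hivep3-/- replicate 1. A UMI of Mki67, Top2a, Birc5, Ccnb2 or Cdk1, genes of mitosis, was found in 20 of 55 members of Hivep3-/- replicate 1 (36.4%, exact interval 23.8 to 50.4%) against 6.09% of its comparison cells (5.30 to 6.94%). The counts were 1 of 3, 0 of 3 and 2 of 6 in C57BL/6 replicates 1 and 2 and Hivep3-/- replicate 2, where comparison cells were at 11%, 8.98% and 10.5%. Of 9 proliferation genes tested in the fit of all libraries, 5 were called higher (those named) and none lower, with a median log2 difference of 2.08. Over all genes tested, 1.74% were called higher. The 9 genes summed to 163, 78, 1252 and 1327 CPM in members against 470, 367, 282 and 446 CPM. In both C57BL/6 libraries, where 1 UMI was 54.3 and 78 CPM, members were thus lower. None of the 5 was called without Hivep3-/- replicate 1 or by DESeq2. With all cells carrying a mitotic UMI left out, an alternative chosen after the data were seen, 204 of 9677 genes were called, 46 of the 175 higher and 131 of the 226 lower genes among them. Gzma, Ccl5, Ccl4, Tyrobp, Itgb1, Itga4, Il7r and Ltb remained called.

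Ribosomal protein genes, examined after their values were seen, were lower in members. Of 90 tested, 62 were called lower and none higher. They took 18.9% and 21.9% of UMIs in the members of Hivep3-/- replicates 1 and 2 against 28.2% and 29.6% in comparison cells, but 29.1% and 29.5% against 29.3% and 30.2% in C57BL/6. The low share was thus measured in the knockout members and not in the 6 C57BL/6 members. In Hivep3-/- replicate 1 it was 22.1% in cells with 2 gate genes, 17.6% in those with 3 or 4, and 20.2% in the members without a mitotic UMI. The part of the mitotic difference in the other calls was examined only by the mitotic filter above. The part of the ribosomal difference was not tested.

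**Figure D5:**
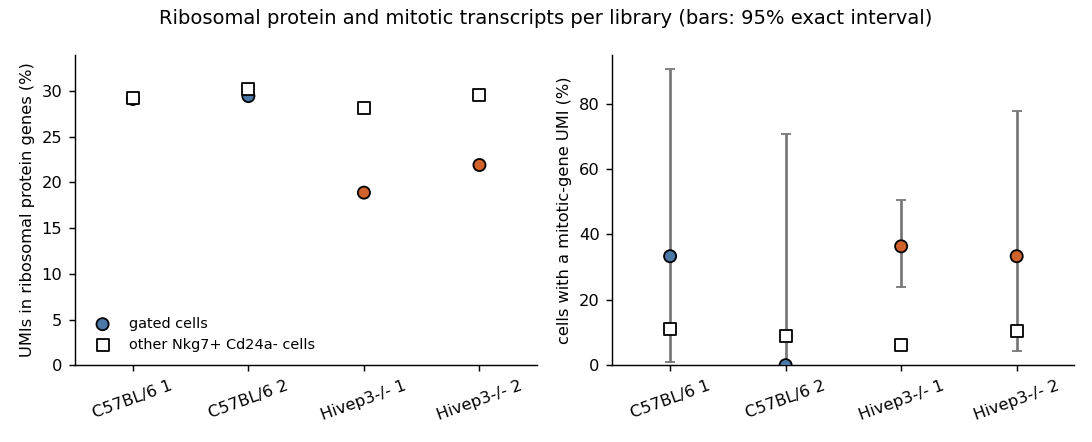
Left, percentage of UMIs in ribosomal protein genes, 1 value per library and class; right, percentage of cells with a UMI of 1 of 5 mitotic genes, with 95% exact binomial intervals; circles are gated cells and squares the other Nkg7-positive Cd24a-negative cells. Ribosomal shares separate in the Hivep3-/- libraries only, and the mitotic intervals separate in Hivep3-/- replicate 1 only.

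Genotypes were compared within members over 2 sums against 2, of which the C57BL/6 sums held 3 cells each. Of 438 genes that passed the filter on low counts, edgeR called 4 (0.913%), 3 higher (0.685%) and 1 lower (0.228%) in Hivep3-/-. Ccl5 was at 26526 and 20767 CPM in Hivep3-/- members against 5590 and 9125 CPM in C57BL/6 members (log2 difference 1.79 ± 0.24, adjusted p = 0.00474). Gzma was at 9218 and 7245 CPM against 2659 and 4212 CPM (1.38 ± 0.27, adjusted p = 0.0477). The members compared were unlike, since all 6 C57BL/6 members had 2 gate genes and 41 of the knockout members had 3 or 4. In members with 2 gate genes only, Gzma was at 2659 and 4212 CPM in C57BL/6 and at 1105 and 5121 CPM in Hivep3-/-, so that the groups overlapped. Ccl5 in the same cells was at 5590 and 9125 CPM in C57BL/6 and at 17016 and 13607 CPM in Hivep3-/-, without overlap, and neither was tested at equal gate count. The histone gene Hist1h2ap was at 2039 and 5310 CPM against 163 and 156 CPM (4.55 ± 0.66, adjusted p = 0.00669), the second of these knockout sums resting on 6 cells. Gm42418, a transcript that overlaps the ribosomal RNA repeat, was at 3044 and 2362 CPM against 11668 and 10217 CPM (-1.92 ± 0.23, adjusted p = 0.00408).

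In the comparison cells Ccl5 was at 2181 and 2325 CPM in Hivep3-/- against 503 and 645 CPM in C57BL/6, and the test of the difference between classes did not reach the threshold (0.25 ± 0.32, adjusted p = 0.978). Gzma in comparison cells was at 160 and 233 CPM in Hivep3-/- against 295 and 356 CPM in C57BL/6, the opposite order to that in members, and the difference between classes was called (2.56 ± 0.36, adjusted p = 9.23e-09). That test called 9 of 10561 genes (0.0852%), and its values are centred at a median log2 of 1.74 over all genes tested. DESeq2 called 3 (0.0284%), with a median of -0.26. Within members DESeq2 called 5 genes between genotypes (1.14%), the same 4 and Dusp1, a phosphatase that was at 41.6 and 405 CPM in Hivep3-/- against 1954 and 1014 CPM in C57BL/6 (edgeR -3.25 ± 0.91, adjusted p = 0.211). No gene was called by edgeR when either C57BL/6 library was left out, with 75 and 68 genes then at an unadjusted p under 0.05.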

How the data were processed

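Single-cell libraries of sorted thymic iNKT cells were made with 5' droplet chemistry. The authors deposited UMI counts per gene and barcode for each library, on mm10, the submitters' processing notes naming Cell Ranger 3.1.0 and Seurat 3.1.4. The deposited gene and barcode lists gave names only (other text, with no score). The members and gene lists were chosen with earlier results of these data known, and the gate is defined by measured values, so the numbers per library are a description.

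Counts were summed per library and class (members, others). Sums were tested with edgeR 4.0.16 (filterByExpr, TMM, quasi-likelihood, Benjamini-Hochberg over all genes tested, threshold 0.05), with the library as a block between classes and no block between genotypes. DESeq2 1.42.0 in R 4.3.3 was an alternative. Shares were tested by exact permutation of the 4 libraries. Neighbours came from 30 principal components. Other steps used Python 3. The edgeR fit between classes was tried on simulated counts with known changes. At a true log2 difference of 2 it recovered 58.5% of changed genes, with 14 false calls among 131 and a median estimate of 1.59 for rises. At a log2 difference of 1 it recovered 1.5%. The simulated counts had the same scatter for every gene and sum and no library effect besides depth. These rates therefore need not hold for the real sums of few cells.

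The naming rule took the 6 gate genes, all listed genes and Hivep3 (4 listed genes are not reported here and are left out of the list counts). It added up to 15 rises and 10 falls, ranked by size, from calls averaging 20 CPM or more that went 1 way in 4 libraries (9 rises qualified), up to 10 rises and 10 falls between genotypes from calls without overlap, and the 5 interaction genes of smallest p. Genes called by both tools, Gimap7, ribosomal genes and T cell receptor segments were chosen after their values were seen. Precision is limited by 12822 to 408995 UMIs per member sum. Alternatives varied the tool, filter, block, gate, comparison cells, depth and libraries. Mouse numbers did not pair the samples (given with the processing alternatives).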

Additional observations from a re-analysis of the deposited data

Results flagged for a closer look

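The genotype difference differed between members and the other Nkg7-positive Cd24a-negative cells for 9 genes by edgeR's test of the interaction, each with a larger Hivep3-/- minus C57BL/6 difference in members. The interaction values of all genes tested had a median log2 of 1.74, against which the values here are to be read. They were Hist1h2ap (interaction log2 4.76, adjusted p = 5.96e-13), Gzma (2.56, adjusted p = 9.23e-09), Tuba1b (3.83, adjusted p = 2.52e-05), Hmgb2 (2.82, adjusted p = 0.000225), Hmgn2 (3.38, adjusted p = 0.00148) and H2afz (1.95, adjusted p = 0.041), and, with no UMI in the C57BL/6 members, Pclaf (adjusted p = 0.000275), Hist1h2ae (adjusted p = 0.0017) and Rrm2 (adjusted p = 0.0116).

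All but Gzma are genes of DNA replication, chromatin or the spindle. Tuba1b, a tubulin, was at 1056 and 1125 CPM in the members of the Hivep3-/- mice against 217 and 0 CPM in C57BL/6 members. Pclaf, a partner of the replication clamp, had 95 UMIs in 8 of 55 members of Hivep3-/- replicate 1 and 30 UMIs in 1 of 6 members of Hivep3-/- replicate 2. Rrm2, a ribonucleotide reductase subunit, had 91 UMIs in 9 cells and 10 UMIs in 1 cell of the same libraries. These counts rest on few cells, and the C57BL/6 members numbered 3 per library. The share of members with a mitotic UMI was 36.4% and 33.3% in Hivep3-/- and 33.3% and 0% in C57BL/6. The number of gate genes differed between the genotypes as well, with 2 in all C57BL/6 members, and among members with 2 gate genes Gzma was at 1105 and 5121 CPM in Hivep3-/- against 2659 and 4212 CPM in C57BL/6. DESeq2 called 3 genes for the same term, Hist1h2ap, Gzma and the Y-linked Eif2s3y, C57BL/6 replicate 1 having no Y-linked UMI.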

How the results depend on the processing

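The share of members among Nkg7-positive Cd24a-negative cells was higher in Hivep3-/- under every alternative run. Over thinning, gate and cell filters the difference was 0.532 to 0.734 percentage points, each with an exact permutation p of 0.333, the smallest possible. With a library left out it ran from 0.123 (without Hivep3-/- replicate 1) to 1.51. As a share of all kept cells the range with a library left out was 0.0822 to 1.13. The gate was chosen with the numbers per library known, so this direction is a description. No alternative left out Cx3cr1, which was detected in 1.60% and 2.0% of these cells in C57BL/6 and in 15.4% and 19.0% in Hivep3-/-. Between members and other cells, edgeR's 401 calls became 13 with DESeq2, 23 with comparison cells matched on UMI count (2136 genes tested), 227 against Gzma-positive Ccl5-positive cells, 240 with at least 3 gate genes (Hivep3-/- libraries only), 200 without cells carrying markers of other cell types and 204 without mitotic cells, and ran from 100 to 424 with a library left out. Other settings gave 307 to 423 calls, among them 307 without the library as a replicate block. The mitotic filter, comparison cells with none of the 4 genes (405), bias-adjusted deviances (393) and a marker filter that spares Cst3 (334) were chosen after the data were seen. Between genotypes, 4 calls became 20 without the low-count filter (10281 genes tested) and 8 with mouse number as a replicate block, and ran from 0 to 13 with a library left out, where the lone library of a genotype is assumed to vary like the other group. Deviations of same-numbered mice correlated at -0.026 in members and 0.11 in other cells, so the number was not taken to pair them. Differences between classes in the genotype effect went from 9 calls to 3 with DESeq2 and 21 with matched cells, and from 4 to 26 with a library left out.

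Some called genes changed sign: Izumo1r (0.54) against Gzma-positive Ccl5-positive cells; Hist1h2ap (-0.0049) with the gate without Zeb2; Ccnb2 (-7.38), Hist1h2ap (-0.83) and Hist1h2ae (-0.71) without cells carrying other markers; Hist1h2ae (-0.094) and Rrm2 (-7.64) without mitotic cells; and, without Hivep3-/- replicate 1, Trbv3 (-0.29, up to 1.99 with another library left out), Ccnb2 (-10.27, up to 2.89) and Serpinb1a (-7.56, up to 2.73). None of these was called in the new direction. The cause was not tested.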
